A study of Rattus norvegicus with 30 samples.

Results

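The wall cells of blood vessels, called mural cells, were followed through 10 genes that mark them in CD31-positive rat lung cells. Acta2, Tagln, Myh11, Cnn1 and Des were listed as contractile genes of smooth muscle. No gene list used here tells smooth muscle of vessels from that of airways. Rgs5, Cspg4, Notch3, Kcnj8 and Higd1b were listed as genes of pericytes, which lie on capillaries, though Cspg4 and Notch3 are not confined to pericytes. The 10 genes were taken by gene name from the 30562 rows of the count table. All 5 contractile genes and 4 of the 5 pericyte genes were found, Higd1b was not analysed here, and all 9 found genes passed the filter on low counts with 16171 genes in all. The samples were CD31-selected lung cells of wild-type rats, taken 3 weeks after a sham or a Glenn operation in animals kept on a control, a vitamin A-deficient or a vitamin A-excess diet, which gives 6 groups of 5 libraries. The Glenn operation joins a caval vein to a pulmonary artery. Strain, age and sex of the animals are not given in the labels, and nothing there says whether replicates came from separate animals, so p-values measure the spread between these libraries.

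Mural cells wrap the endothelial tube and set its bore and stability. Smooth muscle cells of arteries and veins contract through actin and myosin filaments, while pericytes share a basement membrane with the capillary endothelium. Both are recruited by endothelial signals such as PDGF-B and hold their state partly through Notch3, a receptor that is bound by Jag1 on the neighbouring endothelial cell. CD31 is an endothelial surface protein that mural cells are not known to carry, so the genes described here are not markers of the cells that the beads select. In a bulk sample, more cells of a type and more RNA per cell cannot be told apart.

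Total estimated counts lay between 22 and 77.6 M (median 40.0 M), and all levels are given as CPM, counts per 1 M after TMM scaling. Changes are log2 differences from edgeR's quasi-likelihood test, adjusted by the Benjamini-Hochberg method over all genes tested, and a gene is said to have changed at an adjusted p under 0.05. The fit held the library series as a term, since the library names fall in separate number ranges. Series A has 22 libraries and series B has 8, none of them on the control diet. By the level of the class I gene RT1-CE16, 13 libraries were high (above 100 CPM) and 17 low. All 8 libraries of series B were high and all 5 sham libraries on the excess diet were low, so series, RT1-CE16 level and diet partly overlap. On the excess diet series B holds Glenn libraries only, so surgery and series partly overlap there as well. Over the mural genes, 4 libraries were at one end of their group for 7 or more of the 9 genes. Replicate 3 of the deficient diet after Glenn surgery had the highest level for 7 genes, and replicate 4 of that group the lowest for 8 and the highest for Kcnj8. Replicate 1 of the excess diet after Glenn surgery had the lowest level for 8 genes and the highest for Rgs5, and replicate 5 of the excess diet after sham surgery the highest for 8 genes. Results that moved without them are given with and without them.

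The sequences just upstream of Acta2 and Rgs5 are shown because Acta2 is a widely used contractile marker and Rgs5 is the gene that rose least after the operation. Each is the 250 bases before the gene's start, from RefSeq on build GRCr8, at chr1:241172504-241172753 on the minus strand for Acta2 and chr13:84380827-84381076 on the plus strand for Rgs5. The capitals mark CArG-like elements, the letters CC and GG around 6 letters of which at least 5 are A or T. The CArG box is the element bound by serum response factor, the DNA-binding partner of myocardin in smooth muscle.
Acta2: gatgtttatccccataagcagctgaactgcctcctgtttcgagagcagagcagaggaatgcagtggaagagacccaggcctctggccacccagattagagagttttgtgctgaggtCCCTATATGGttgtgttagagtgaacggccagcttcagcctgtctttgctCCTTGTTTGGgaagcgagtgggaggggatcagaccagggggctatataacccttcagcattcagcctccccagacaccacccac
Rgs5: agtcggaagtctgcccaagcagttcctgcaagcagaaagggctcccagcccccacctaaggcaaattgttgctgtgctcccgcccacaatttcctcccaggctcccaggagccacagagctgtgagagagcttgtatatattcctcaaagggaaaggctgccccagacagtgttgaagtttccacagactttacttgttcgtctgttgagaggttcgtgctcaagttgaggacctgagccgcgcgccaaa

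Acta2 held 2 CArG-like elements, at 134 to 125 and at 84 to 75 bases before its start, and the printed window of Rgs5 held 0. Of 33469 promoters of this length, 8.076% held such an element on either strand, and 1.497% held the strict CArG box, in which all 6 inner letters are A or T. Upstream sequences were at hand for 7 of the 10 genes, among them Cnn1, Des, Cspg4, Notch3 and Kcnj8, and none of the 7 held the strict box. Those of Cnn1, Des, Cspg4, Notch3 and Kcnj8 also held 0 CArG-like elements, so the element did not separate contractile from pericyte genes here. The letters TGGGAA, the core bound by the Notch effector RBPJ, were present on either strand in Acta2 and Cnn1 and in 22.071% of promoters, and the Acta2 match at 77 to 72 bases overlaps its second CArG-like element. The letters CATTCC, bound by TEAD factors, were present in Acta2 and in 12.062% of promoters. These matches describe letters in a short window and not binding.

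All 9 mural genes rose after Glenn surgery when the diets were averaged, and the median rise was larger for the contractile than for the pericyte genes. The median log2 change was 2.0 for the 5 contractile and 1.35 for the 4 pericyte genes, a difference of 0.65, against a median of -0.01 over all genes tested. Among all genes tested 48.2% of genes changed and 23.4% rose, so that a rise alone was common, while the contractile genes rose 2.84- to 4.63-fold. Each log2 change stayed on the same side of the threshold in all 42 alternative fits, among them one with those 4 libraries left out. The mean log2 level of the contractile genes minus that of the pericyte genes was 0.63 ± 0.26 in the sham and 1.36 ± 0.24 in the Glenn libraries (SD, n = 15 each), with ranges of 0.25 to 1.12 and 0.97 to 1.90 that overlap, and this difference between classes was not tested. The 95% confidence intervals of Cspg4 (1.15 to 1.98) and Notch3 (1.11 to 1.93) overlapped those of all 5 contractile genes. The interval of Kcnj8 (0.90 to 1.46) lay below those of Acta2, Tagln, Myh11 and Cnn1. In the plot of log2 changes by diet Rgs5 lies lowest on the control and deficient diets, and on the excess diet it stands beside Kcnj8, both at 1.04. These values include the series term, which was -0.45 for Rgs5 and 0.48 for Kcnj8 (series B against A). Without that term, mean levels on the excess diet went from 54.5 to 94.5 CPM for Rgs5 and from 4.78 to 12.2 CPM for Kcnj8.

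**Figure D1:**
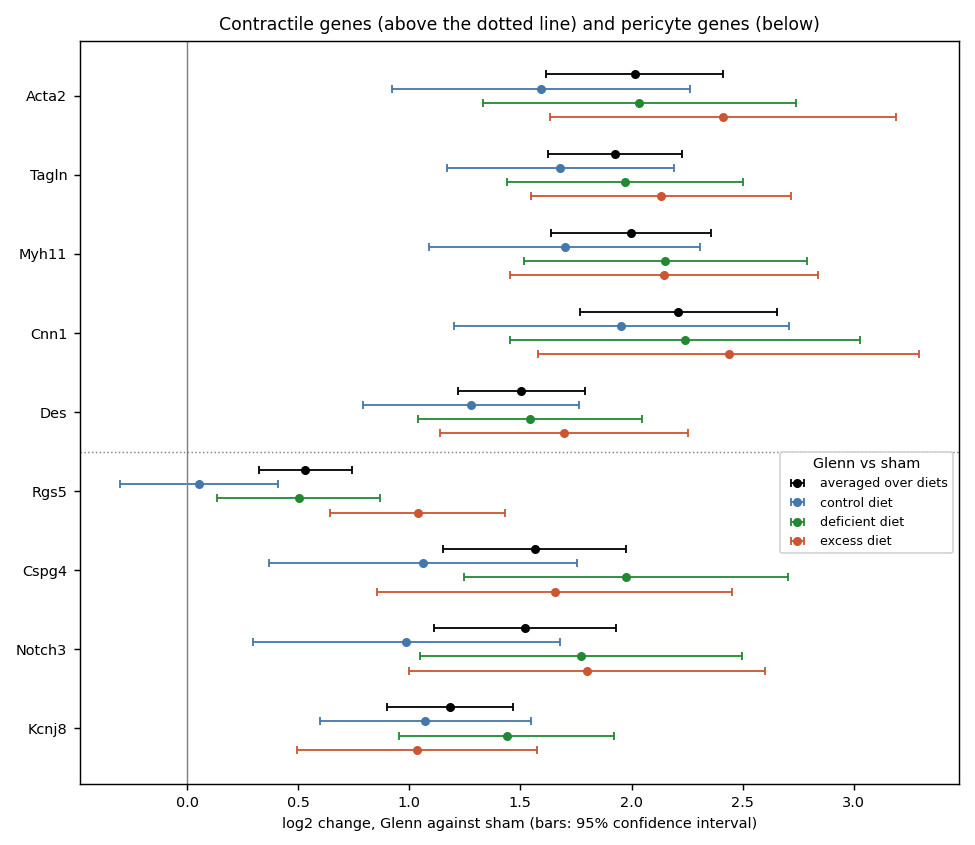
Log2 change of each gene between Glenn and sham surgery (horizontal axis) with its 95% confidence interval, averaged over diets (black) and on each diet (colours), contractile genes above and pericyte genes below the dotted line. The averaged changes run from 1.5 to 2.21 for the contractile genes, and Rgs5 stands lowest at 0.53.

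Acta2 (ENSRNOG00000058039), the actin of smooth muscle thin filaments, was higher in each of the 15 libraries after Glenn surgery than in each of the 15 after sham surgery. On the control diet it stood at 49.4, 27.7, 26.0, 34.7 and 34.4 CPM in sham replicates 1 to 5, and at 74.8, 104, 148, 67.2 and 125 CPM after Glenn surgery. On the deficient diet the values were 32.9, 39.0, 37.3, 30.8 and 38.5 CPM in sham libraries and 140.0, 106, 304, 83.8 and 109.8 CPM in Glenn libraries. On the excess diet they were 14.7, 24.5, 24.9, 26.1 and 30.7 CPM against 66.7, 112, 85.6, 145 and 211 CPM. The lowest Glenn library thus lay above the highest sham library, and the Glenn libraries spread more widely. The averaged log2 change was 2.01 (SE 0.19, edgeR adjusted p 2.92e-09), a 4.04-fold rise, and 1.84 without replicate 3 of the Glenn deficient group. Reads of Acta2 can be shared with the near-identical muscle actins Actg2, Actc1 and Acta1, so its estimate is uncertain to that extent.

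Myh11 (ENSRNOG00000057880), the smooth muscle myosin heavy chain, which is not an actin, moved as Acta2 did. On the control diet its levels were 86.0, 49.8, 51.5, 59.1 and 58.2 CPM in sham libraries and 159, 209, 255, 134 and 232 CPM in Glenn libraries. On the deficient diet they were 58.4, 73.4, 70.7, 50.5 and 63.6 CPM against 256, 179.7, 609, 175 and 232 CPM, and on the excess diet 30.6, 50.4, 55.4, 52.8 and 56.7 CPM against 107, 231, 164, 271 and 240.4 CPM. The 2 surgeries did not overlap, and the 609 CPM came from replicate 3 of the Glenn deficient group. The averaged log2 change was 2.0 (SE 0.17, edgeR adjusted p 4.41e-10).

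The other contractile genes gave changes of the same order. Tagln (ENSRNOG00000017628), the actin-binding protein transgelin, rose from 44.7 ± 9.56 to 171 ± 59.7 CPM (SD, n = 15 each) and had a log2 change of 1.93 with the smallest adjusted p of the 9 genes, 2.3e-11 by edgeR. Cnn1 (ENSRNOG00000027736), calponin, which binds actin and holds back myosin's ATPase, rose from 3.77 ± 1.54 to 17.2 ± 7.55 CPM (SD, n = 15 each). Its log2 change of 2.21 (SE 0.22, edgeR adjusted p 2.38e-09) was the highest of the 9. Des (ENSRNOG00000019810), the muscle intermediate filament desmin, which pericytes also make, rose from 26.1 ± 6.71 to 73.8 ± 24.5 CPM (SD, n = 15 each). Its change of 1.5 (SE 0.14, edgeR adjusted p 9.57e-10) was the lowest of the contractile genes and the only one whose surgeries overlapped, by the sham library at 39.8 CPM on the control diet and the Glenn library at 39.0 CPM on the excess diet. With Notch3, 5 of the 9 genes were higher in every Glenn library than in every sham library, against 3.1% of all genes tested.

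**Figure D2:**
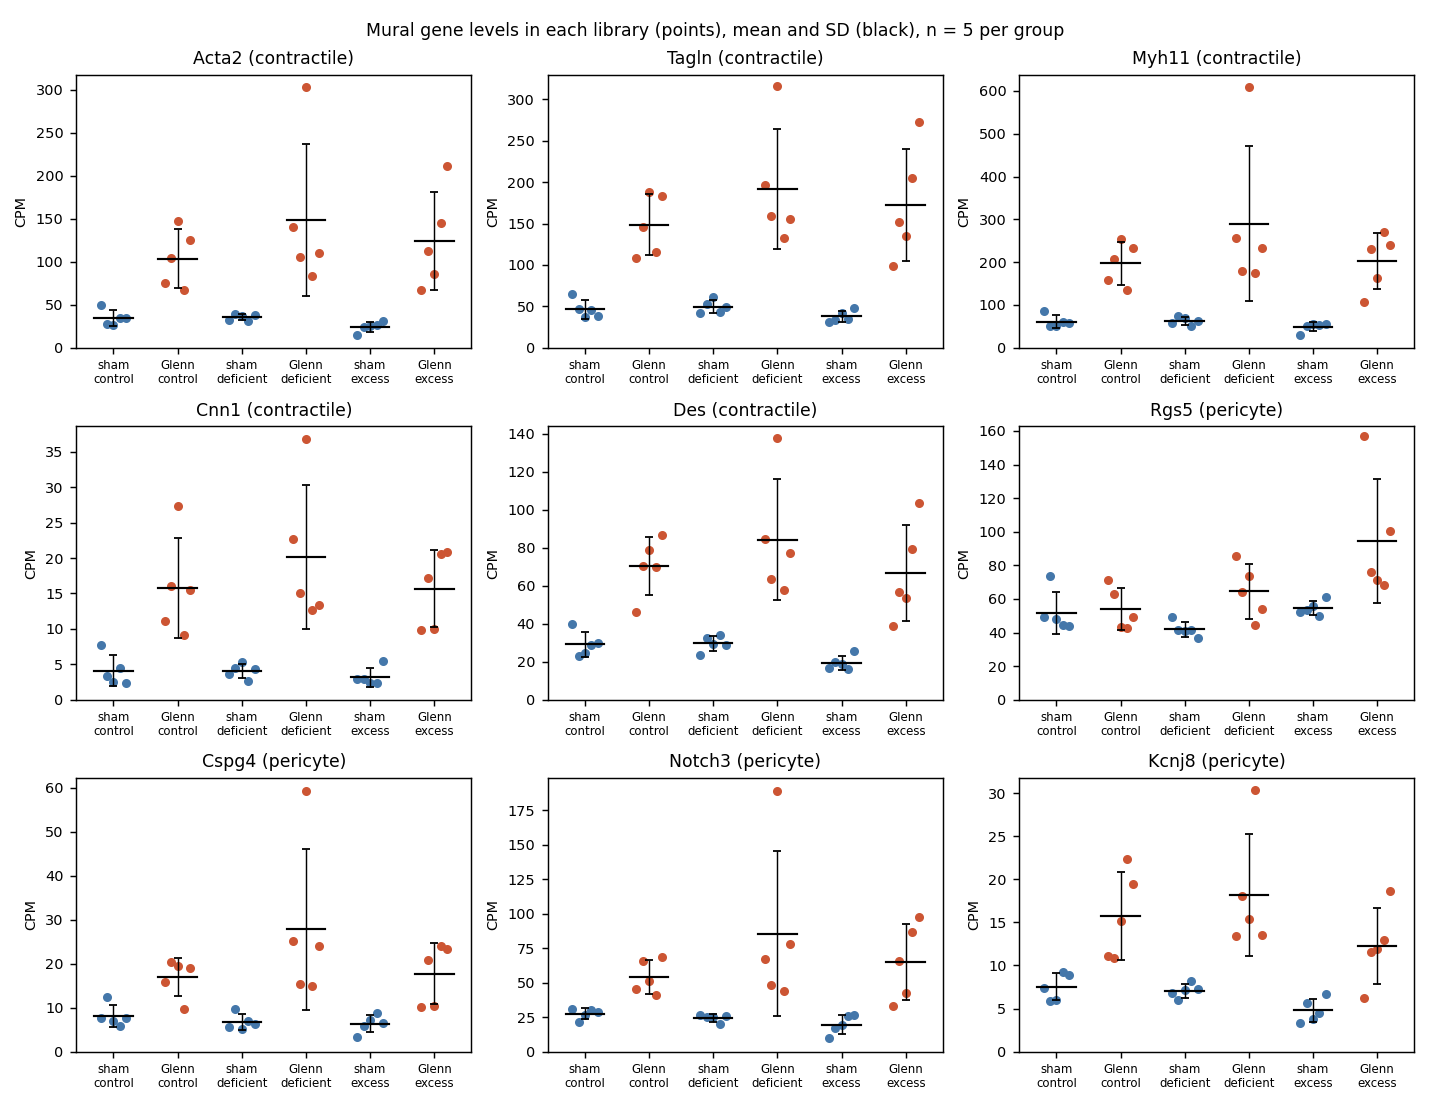
Level of each gene in CPM (vertical axis, from 0) in every library, by surgery and diet, with blue points for sham, red points for Glenn surgery, and black lines for the mean and SD of 5 libraries. Acta2 stays at or under 49.4 CPM in sham libraries and at or above 66.7 CPM in Glenn libraries, while Rgs5 overlaps on the control and deficient diets.

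Notch3 and Cspg4 behaved much as the contractile genes did. Their averaged changes were below those of Acta2, Tagln, Myh11 and Cnn1 and slightly above that of Des. Notch3 (ENSRNOG00000004346) stood at 30.5, 21.3, 26.2, 30.1 and 29.0 CPM in sham libraries and 45.3, 65.8, 51.2, 40.6 and 68.3 CPM in Glenn libraries on the control diet. On the deficient diet its levels were 26.5, 25, 25.3, 19.7 and 26.0 CPM against 67.3, 48.4, 189, 43.8 and 78 CPM, and on the excess diet 9.91, 16.7, 19.0, 25.4 and 26.4 CPM against 33.0, 65.8, 42.1, 86.8 and 97.2 CPM. The surgeries did not overlap, and the averaged log2 change was 1.52 (SE 0.20, edgeR adjusted p 5.62e-07), or 1.30 without replicate 3 of the Glenn deficient group. Cspg4 (ENSRNOG00000017208), the NG2 proteoglycan on the mural cell surface, rose from 7.05 ± 2.12 to 20.8 ± 11.9 CPM (SD, n = 15 each), which gave 1.56 on the log2 scale (SE 0.20, edgeR adjusted p 3.03e-07). It was 1.37 without that library.

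Kcnj8 (ENSRNOG00000013463), the Kir6.1 pore of the ATP-sensitive potassium channel, rose less. Its levels on the control diet were 7.42, 5.88, 6.04, 9.30 and 8.87 CPM in sham libraries and 11.1, 10.9, 15.1, 22.4 and 19.4 CPM in Glenn libraries. On the deficient diet they were 6.80, 6.01, 7.12, 8.23 and 7.23 CPM against 13.4, 18, 15.4, 30.4 and 13.6 CPM, and on the excess diet 3.35, 5.59, 3.81, 4.51 and 6.64 CPM against 6.17, 11.6, 11.9, 13.0 and 18.7 CPM. The groups overlapped on the excess diet, where the lowest Glenn value lay under the highest sham value. The averaged log2 change was 1.18 (SE 0.14, edgeR adjusted p 3.72e-08), a 2.27-fold rise. The highest Kcnj8 value, 30.4 CPM, came from replicate 4 of the Glenn deficient group, which was the lowest of its group for the other 8 genes.

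Rgs5 (ENSRNOG00000002730), a protein that shortens G-protein signals and one of the most used pericyte markers, rose least. On the control diet it stood at 49.3, 73.9, 47.8, 44.7 and 43.6 CPM in sham libraries and at 71.2, 63.0, 43.2, 42.9 and 49.2 CPM in Glenn libraries. On the deficient diet the values were 49.3, 41.3, 40.9, 41.4 and 36.7 CPM against 85.7, 64.1, 73.7, 44.6 and 54.1 CPM, and on the excess diet 52.1, 53.5, 55.9, 49.7 and 61.2 CPM against 157, 76.0, 71.1, 68.0 and 101 CPM. The surgeries overlapped on the control and the deficient diet and did not on the excess diet. The averaged log2 change of 0.53 (SE 0.10, edgeR adjusted p 8.66e-05) was a 1.45-fold rise, and 0.45 without replicate 1 of the Glenn excess group. Its 95% confidence interval of 0.32 to 0.74 lay below those of the other 8 genes, of which the lowest began at 0.90 for Kcnj8.

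Taken by diet, the operation raised nearly all of the genes on each. On the control diet 8 of 9 rose, against 24.9% of all genes that changed and 11.8% that rose. Rgs5 was the exception, at 0.05 on the log2 scale (95% confidence interval -0.30 to 0.41, edgeR adjusted p 0.867). On the deficient diet 9 of 9 rose (27.4% of all genes changed and 13.7% rose), and on the excess diet 9 of 9 (21.9% and 11.6%). The groups did not overlap for 7, 8 and 8 genes on the control, deficient and excess diets, against 7.78%, 10% and 8.59% of all genes with every Glenn library higher. The median log2 changes of contractile and pericyte genes were 1.68 and 1.02 on the control diet, 2.04 and 1.61 on the deficient diet and 2.15 and 1.35 on the excess diet.

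Some of these calls lay near the threshold and did not hold in every fit. The Notch3 rise on the control diet (0.99, SE 0.33, edgeR adjusted p 0.0317) lost its call when any of sham control replicates 2, 3 or 5 or Glenn control replicates 2 or 5 was left out, with log2 changes of 0.91, 0.99, 1.01, 0.91 and 0.89 in turn, and with no filter on low counts (0.99, edgeR adjusted p 0.0534). The Cspg4 rise on that diet (1.06, SE 0.34, edgeR adjusted p 0.0211) was lost without sham control replicate 4, at 0.96. The Rgs5 rise on the deficient diet (0.50, SE 0.18, edgeR adjusted p 0.0361) was lost without sham deficient replicate 1, 2 or 5 or Glenn deficient replicate 1, 3 or 5, at 0.49, 0.41, 0.50, 0.44, 0.50 and 0.49. It was also lost with no filter on low counts (0.50, edgeR adjusted p 0.0577). Series A alone (0.72, edgeR adjusted p 0.0795) and the RT1-CE16-low libraries alone (0.72, edgeR adjusted p 0.0951) lost it too. On the deficient diet both keep the same libraries, sham replicates 1 and 2 and Glenn replicates 1, 2 and 3, so they are not separate losses. The Rgs5 rise on the excess diet was 1.04 (SE 0.19, edgeR adjusted p 0.000202) and 0.76 without Glenn excess replicate 1. In the RT1-CE16-low libraries alone, which leave 2 sham and 3 Glenn libraries on the control diet, Tagln and Cnn1 were the 2 genes that passed there, and Acta2, Myh11 and Des had changes of 1.51, 1.62 and 1.07. On the excess diet those libraries, and series A alone, leave Glenn excess replicates 1 and 2 against the 5 sham libraries. A fit of the 2 excess groups by themselves rests on the same libraries through its series term, so these settings are not separate. In the RT1-CE16-low libraries Cspg4 and Notch3 did not pass on the excess diet, at 1.29 and 1.36. The Cspg4 rise on that diet was also lost in series A alone (1.29, edgeR adjusted p 0.0524). In a fit of the 2 excess groups by themselves Notch3 (1.36, edgeR adjusted p 0.0628) and Kcnj8 (0.90, edgeR adjusted p 0.0615) were lost, and without the 4 libraries the Kcnj8 rise there went from 1.04 to 1.56. No interaction of surgery and diet passed for a mural gene in edgeR, DESeq2 or limma voom, and edgeR called 0.00618% of all genes. At an unadjusted p under 0.05 in edgeR the interaction counts were 1 of 9 mural genes and 925 of all 16171 genes. The mural gene nearest to passing was Rgs5 (unadjusted p 0.00309, edgeR adjusted p 0.559), so a difference between diets in its response was not established.

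Between diets 1 mural gene passed the threshold, Rgs5 after Glenn surgery. Its level was 94.5 ± 37.1 CPM with excess and 53.9 ± 12.7 CPM with control feeding (SD, n = 5 each). That is a log2 difference of 1.05 (SE 0.19, edgeR adjusted p 0.008). In this comparison 1.47% of all genes changed and 0.89% were higher on the excess diet. The groups overlapped, since the highest control library, at 71.2 CPM, lay above 2 of the excess libraries, at 68.0 and 71.1 CPM. Without Glenn excess replicate 1, at 157 CPM, the difference was 0.77 and no longer passed (edgeR adjusted p 0.153). With no series term it was 0.81 (edgeR adjusted p 0.127), in the RT1-CE16-low libraries alone 0.97 (0.175), and with an RT1-CE16 term in place of the series 0.88 (0.00982). Between excess and deficient diets after Glenn surgery the Rgs5 difference was 0.64 (unadjusted p 0.00112, edgeR adjusted p 0.431), 0.42 without Glenn excess replicate 1 and 0.31 without the 4 libraries.

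The remaining diet comparisons called 0 of the 9 genes in edgeR, DESeq2 and limma voom, and the share of all genes that edgeR called there was 0.241% for excess against control after sham surgery, 0.0124% for excess against deficient after sham, 0.00618% for deficient against control after Glenn, and 0% for deficient against control after sham and for excess against deficient after Glenn. At an unadjusted p under 0.05 the counts were 2, 0, 2, 0 and 2, against 1788, 854, 1598, 844 and 837 of all 16171 genes. After sham surgery the 2 were Kcnj8 (-0.65, edgeR adjusted p 0.267) and Des (-0.59, edgeR adjusted p 0.344), both at lower levels under excess than under control feeding. After Glenn surgery Kcnj8 on the excess diet had a log2 difference of -0.69 against the control diet (edgeR adjusted p 0.197) and of -0.68 against the deficient diet (edgeR adjusted p 0.778), which were -0.31 and -0.20 without the 4 libraries. Between deficient and control diets after Glenn surgery, Cspg4 had a difference of 0.79 (edgeR adjusted p 0.425), which was 0.22 without replicate 3 of the deficient group and 0.39 without the 4 libraries, and Rgs5 one of 0.41 (edgeR adjusted p 0.442). For Acta2 the 95% confidence interval of excess against control after Glenn surgery ran from -0.46 to 1.08.

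Ordered by mean level, the 3 sham groups of every contractile gene lay below the 3 Glenn groups, and the step from the third to the fourth group was the only one between neighbours whose libraries did not overlap. For Acta2 the order was sham excess (24.2 ± 5.84 CPM), sham control (34.4 ± 9.24), sham deficient (35.7 ± 3.65), Glenn control (103.9 ± 33.8), Glenn excess (124 ± 57.0) and Glenn deficient (149 ± 88.9 CPM, SD, n = 5 each). Notch3 had the same single step, and Kcnj8 and Cspg4 the same split of sham and Glenn groups with neighbours that overlapped. Rgs5 was ordered otherwise. It was lowest in sham deficient (41.9 ± 4.57 CPM), followed by sham control, Glenn control and sham excess between 51.9 and 54.5 CPM, Glenn deficient (64.5 ± 16.1) and Glenn excess (94.5 ± 37.1 CPM, SD, n = 5 each), and every pair of neighbours overlapped.

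Within groups, the libraries with more of a contractile gene had more of the others. After group means and the series were taken out, the 10 pairs of contractile genes had Pearson correlations of 0.76 to 0.94 over the 30 libraries, and 22 of the 36 pairs of mural genes passed a permutation test within groups (100000 permutations, Benjamini-Hochberg over the 36 pairs). Acta2 and Notch3 had r = 0.89 and rho = 0.81 (both with permutation p 1e-05, the smallest that these permutations can give), and r = 0.82 without the 2 libraries farthest out. Acta2 and Rgs5 had r = -0.05 and rho = 0.01 (permutation p 0.843 and 0.964), and r = 0.09 without those 2. With the contractile genes Rgs5 had r from -0.17 to 0.00, none past the test.

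The pericyte genes did not form a group of their own in this measure. Cspg4 and Notch3 had r = 0.81 and rho = 0.65, and each passed with all 5 contractile genes. Rgs5 and Kcnj8 went opposite ways, with r = -0.49 and rho = -0.49 (permutation p 0.021 and 0.02, adjusted 0.0344 and 0.0328). That r was -0.37 without the 2 libraries farthest out, -0.27 among the sham and -0.58 among the Glenn libraries, and -0.37 when RT1-CE16 level was taken out and the series was not. For Cspg4 the relation with the contractile genes was found mainly after Glenn surgery. There r was 0.81 to 0.95, against -0.13 to 0.37 among the sham libraries. Notch3 had r with those genes of 0.80 to 0.94 after Glenn and 0.31 to 0.81 after sham surgery. Between Cspg4 and Notch3 r was 0.96 after Glenn and 0.34 after sham surgery. None of these differences was tested. The Glenn deficient replicate 3 was 1.95 to 3.27 times the median of the other 4 libraries of its group for 7 genes, but 1.25 for Rgs5 and 0.976 for Kcnj8.

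**Figure D3:**
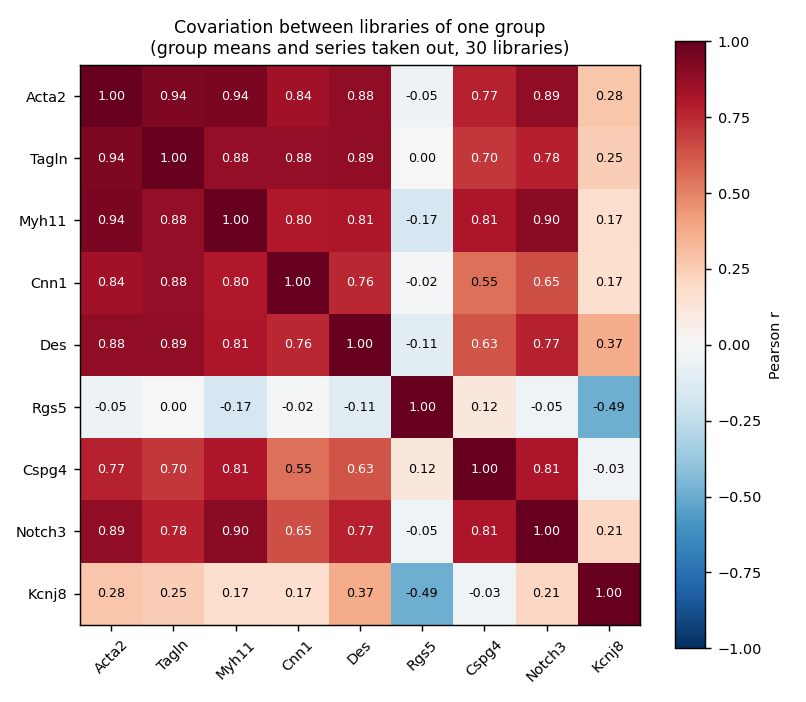
Pearson correlation of the log2 levels of each pair of genes over 30 libraries, after group means and the series were taken out, with red for positive and blue for negative values. The contractile genes, Cspg4 and Notch3 share a block of 0.55 to 0.94, whereas Rgs5 and Kcnj8 are correlated with each other at -0.49.

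**Figure D4:**
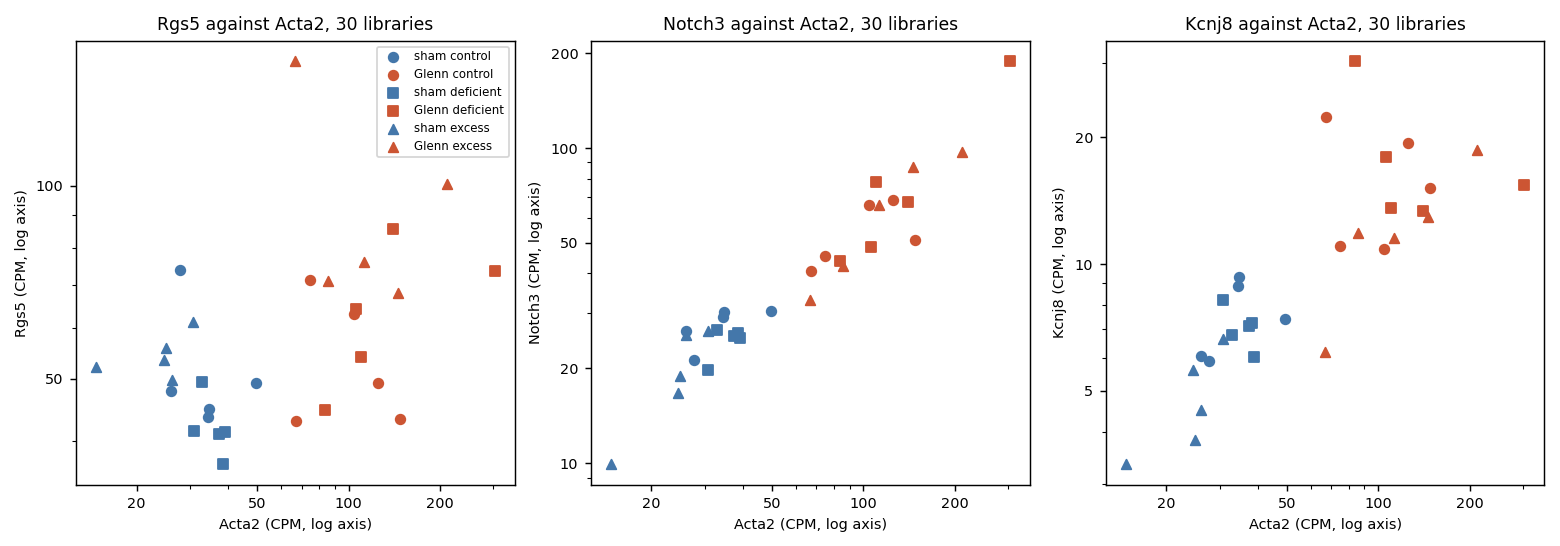
Level of Rgs5, Notch3 and Kcnj8 against Acta2 in the 30 libraries (CPM, both axes logarithmic), with blue for sham and red for Glenn surgery and marker shapes for the diets. Notch3 climbs with Acta2 over its whole range, and the Glenn excess library with the most Rgs5, 157 CPM, has the least Acta2 of its group, 66.7 CPM.

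Rgs5 and Kcnj8 were also the 2 mural genes whose level went with that of RT1-CE16. When the series term gave way to one for RT1-CE16 level, which was chosen after the values were seen, Rgs5 was lower in the RT1-CE16-high libraries (-0.43, SE 0.10, edgeR adjusted p 0.00913) and Kcnj8 higher (0.50, SE 0.13, edgeR adjusted p 0.0209). The other 7 genes did not pass, and 6.53% of all genes did. After sham surgery Rgs5 was 42.5 ± 3.79 CPM in the 6 high and 54.0 ± 9.21 CPM in the 9 low libraries, and after Glenn surgery 61.5 ± 20.4 CPM in 7 high and 79.2 ± 33.7 CPM in 8 low libraries (SD). Kcnj8 was 7.80 ± 1.22 against 5.56 ± 1.39 CPM after sham and 18.5 ± 6.53 against 12.7 ± 3.63 CPM after Glenn surgery (SD, the same libraries). The series itself called 0 of the 9 genes, with 1.64% of all genes called and 2 of the 9 at an unadjusted p under 0.05, Rgs5 at -0.45 and Kcnj8 at 0.48. With the RT1-CE16 term the averaged Glenn change was 0.50 for Rgs5 and 1.2 for Kcnj8.

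Among 13470 other genes whose mean reached 1 CPM, the ones whose within-group variation was most like that of the contractile genes included several muscle genes. The gene nearest to the mean of the 5 contractile genes was Tpm2, beta-tropomyosin (r = 0.96 over 30 libraries), which was also nearest to Tagln, Cnn1 and Des. Next came Olfml2b, the potassium channel gene Kcna5, the laminin-binding integrin gene Itga7, Jph2 of membrane junctions in muscle and the myosin light chain gene Myl9 (r from 0.92 to 0.89). Olfml2b was nearest to Acta2 (0.92) and Myh11 (0.90). For the mean of the 4 pericyte genes the nearest were Atp1b2 (0.88), Olfml2b, Egflam, Adcy3, Slc20a2 and Atp2a3.

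The single pericyte genes had different neighbours. Notch3 was nearest to Adcy3, an adenylate cyclase (0.90), and Cspg4 to Dkk2, a Wnt modulator (0.81). Rgs5 was nearest to Vegfc, the lymphatic growth factor (0.77), which fell slightly after Glenn surgery (-0.22, edgeR adjusted p 0.027), and Kcnj8 to Ttll3 (0.77), whose change of 0.25 did not pass (edgeR adjusted p 0.366). These were the highest of many correlations and describe these libraries.

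Other smooth muscle genes moved with the contractile genes. Of 19 tested, 18 rose and 1 fell, with a median log2 change of 1.10 (23.4% of all genes rose and 24.7% fell). By diet 13, 17 and 17 of the 19 rose on the control, deficient and excess diets, against 11.8%, 13.7% and 11.6% of all genes. The smallest adjusted p-values were those of Sncg (2.64), a synuclein, Smtn (0.99), smoothelin of the contractile cytoskeleton, and Actg2 (2.03), the enteric smooth muscle actin, with edgeR adjusted p-values of 1.39e-13, 1.94e-13 and 2.19e-11. The one that fell was Pcp4l1 (-2.14, edgeR adjusted p 3.04e-05), named here after its value was seen. Smtn went from 51.6 ± 5.13 to 103 ± 16.2 CPM (SD, n = 15 each), and its change was among the steadiest, from 0.96 to 1.03 when single libraries were left out.

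Other pericyte genes were divided. Of 20 tested, 13 rose, 3 fell and 4 did not pass, with a median log2 change of 0.44, against the same 23.4% and 24.7% of all genes. In the RT1-CE16-low libraries alone 7 of the 20 changed, a share near that of all genes, 5354 of 16525. On the control diet 2 rose and 2 fell (median 0.06), near the 11.8% and 13.1% of all genes. With deficiency 7 rose and 1 fell, against 13.7% of all genes each way. With excess 8 rose and 0 fell in edgeR, against 11.6% and 10.4% of all genes, and 12 rose and 1 fell in limma voom. The smallest adjusted p-values were those of Rgs4 (2.23, edgeR adjusted p 1.67e-11), a relative of Rgs5, of Itga7 (1.78, edgeR adjusted p 1.23e-07) and of Vtn (-1.01, edgeR adjusted p 7.76e-07), vitronectin, which fell from 4.50 ± 1.06 to 2.31 ± 0.894 CPM (SD, n = 15 each). Rgs4 rose from 7.57 ± 1.05 to 35.2 ± 16.9 CPM (SD, n = 15 each). The partners of the members were named after their values were seen. Pdgfrb, the PDGF-B receptor, rose by 0.91 (edgeR adjusted p 1.59e-05), and Abcc9, the sulfonylurea receptor subunit that pairs with the Kcnj8 pore, by 0.70 (edgeR adjusted p 0.000514). Gja4 and Anpep, the other 2 that fell, changed by -0.54 and -0.35, and Mcam, Steap4, Gucy1a1 and Cd248 had values of 0.12, 0.00, 0.22 and 0.17.

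Of 20 transcription regulators of mural and neighbouring cells, 11 rose, 5 fell and 4 did not pass (median log2 change 0.41). Among all genes 23.4% rose and 24.7% fell, so the share of regulators that fell was near that of all genes. The smallest adjusted p-values belonged to genes that fell. Foxf1, a mesenchymal forkhead factor that lung endothelium also expresses, fell by 1.01 on the log2 scale (edgeR adjusted p 2.38e-10), Tbx2 by 1.65 (edgeR adjusted p 5.77e-13) and Klf4, which represses contractile genes in smooth muscle and is an endothelial flow-response gene, by 0.72 (edgeR adjusted p 1.13e-08). Chosen after their values were seen, Myocd, the myocardin coactivator of serum response factor, had a change of 1.44 (edgeR adjusted p 2.85e-05), at 0.724 ± 0.242 CPM in the sham and 1.97 ± 1.06 CPM in the Glenn libraries (SD, n = 15 each). Srf itself rose by 0.40, and Heyl, a Notch target gene, by 1.39 (edgeR adjusted p 5.5e-08).

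Of 12 endothelial signals that act on mural cells, 5 rose, 3 fell and 4 did not pass (median log2 change 0.11), against 23.4% and 24.7% of all genes, and the share that fell was near that of all genes. The named genes were Hbegf (1.03, edgeR adjusted p 8.65e-10), an EGF-family growth factor, Edn1 (-0.99, edgeR adjusted p 5.1e-12), the constrictor endothelin, and Pdgfd (-1.05, edgeR adjusted p 1.6e-11), a ligand of the PDGF-B receptor. Edn1 stood at 466 ± 99.4 CPM in the sham and 227 ± 48.9 CPM in the Glenn libraries (SD, n = 15 each). Jag1, the ligand of Notch3, rose by 0.44 (edgeR adjusted p 0.000344), and Pdgfb did not pass (0.06, edgeR adjusted p 0.658), both named after their values were seen.

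**Figure D5:**
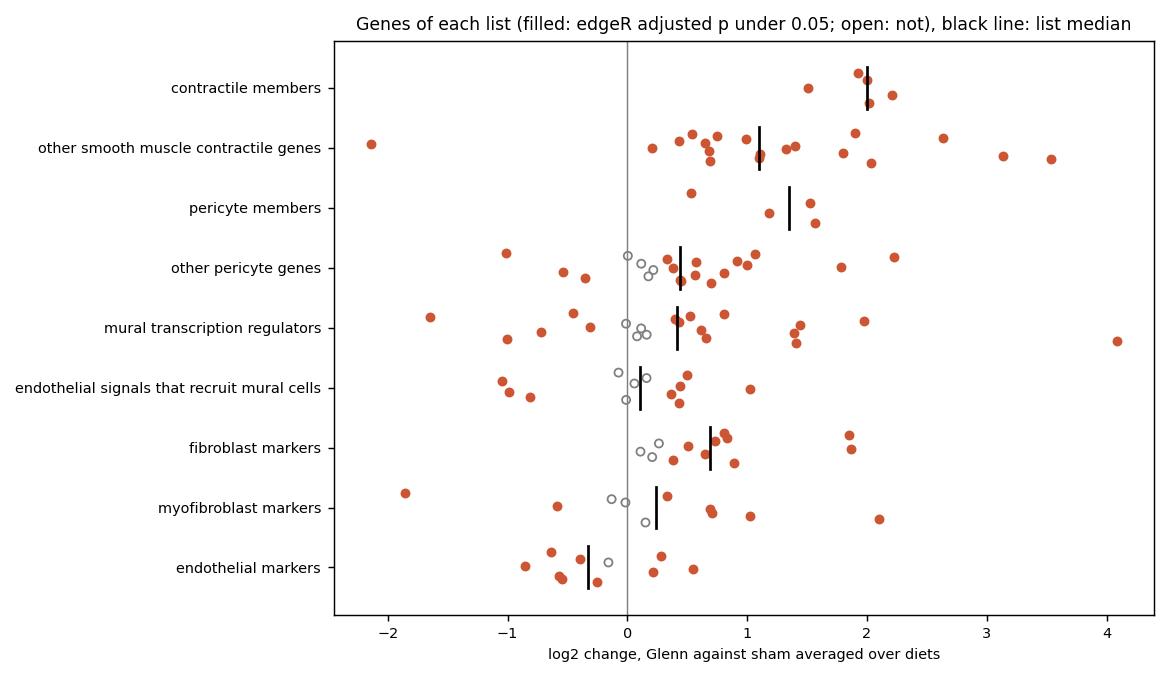
Log2 change between Glenn and sham surgery averaged over diets (horizontal axis) for each tested gene of 9 lists, filled where the edgeR adjusted p is under 0.05, with a black line at each list's median. The contractile members stand at a median of 2.0 and the pericyte members at 1.35, above the other pericyte genes at 0.44 and the endothelial markers at -0.33.

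Markers of other cells in the sorted samples moved with the operation too, and their part in the mural result was not tested. The 9 mural genes summed to 96.6 to 248 CPM (contractile) and 68.7 to 113 CPM (pericyte) in sham libraries, and to 321 to 1403 CPM and 116 to 337 CPM in Glenn libraries. Counts of these markers are from the averaged comparison unless a diet is named, and there 23.4% of all genes rose and 24.7% fell. Of 12 fibroblast markers 9 rose and 0 fell (median 0.69). By diet (control, deficient, excess) 2, 7 and 3 of them rose, with a median of 0.23 on the first, against 11.8%, 13.7% and 11.6% of all genes, and 6 rose with excess feeding in DESeq2 and in limma voom. Their sum was 1628 to 4014 CPM after sham and 2153 to 5631 CPM after Glenn surgery. The most abundant, Col3a1, did not pass (0.21, edgeR adjusted p 0.0726), and Col1a2 rose by 0.38. Of 10 myofibroblast markers 5 rose and 2 fell, with Eln, elastin, at 0.71 and Wif1 at -1.86, and sums of 1431.5 to 2174 CPM against 1041 to 2869 CPM.

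Markers of striated muscle, which shares several contractile genes, were low. Of the 10 cardiac markers 7 were tested and 3 rose, with Actc1 (1.83) and Tnnt2 (1.38) the most abundant, and their sum was 1.55 to 7.70 CPM after sham and 5.61 to 25 CPM after Glenn surgery. Of the 10 skeletal markers 3 were tested and all 3 rose, with Acta1 at 1.48 and Actn3 at 1.61, and the sum stayed at 4.63 CPM or less in every library. The cardiac hormone gene Nppa did not pass the filter and reached at most 0.412 CPM. Actc1 and Acta1 can share reads with Acta2.

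Endothelial markers summed to 10092 to 12621 CPM after sham and 7132 to 10702 CPM after Glenn surgery, and of 10 genes 3 rose and 6 fell (Cdh5 -0.25, Cldn5 -0.54). All 8 type 2 epithelial markers fell in the averaged comparison (Sftpc -0.38, Sftpa1 -0.33), but by diet (control, deficient, excess) 0, 8 and 2 of 8 fell, against 13.1%, 13.7% and 10.4% of all genes. The median on the control diet was -0.15, with 1 of 8 at an unadjusted p under 0.05 in edgeR and 0 of 8 called in DESeq2 or limma voom. They had sums of 37246 to 63731 CPM against 26309 to 59814 CPM. Of 6 type 1 markers 4 rose and 1 fell (Ager 0.82, Cav1 0.08 and not past the threshold), with sums of 2440.0 to 3500.0 CPM against 2833 to 4359 CPM. Of 6 mesothelial markers 0 passed in edgeR, DESeq2 or limma voom (0 of 6 at an unadjusted p under 0.05 in edgeR), with Msln at -0.08 and Lrrn4 at -0.07 and sums of 267 to 646 CPM against 187 to 771 CPM. Of 4 Schwann cell markers tested 1 fell, Scn7a at -1.47, beside Mbp at -0.16, and the list summed to 265 to 562 CPM against 110.1 to 198 CPM. Leukocyte markers gave 1 rise and 1 fall among 7 (Csf1r 0.71, Cd68 -0.76) and platelet and erythroid markers 1 and 4 among 6 (Itga2b -0.84, Pf4 -0.75), with sums of 15.6 to 79.6 and 27.3 to 101.5 CPM after sham and 20.9 to 63.4 and 24.4 to 90.8 CPM after Glenn surgery.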

How the data were processed

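RNA was measured in 30 libraries (6 groups of 5), prepared with a PureLink RNA kit and a SMART-Seq low-input kit, per the labels' protocols. The submitters' processing notes name FastQC, Trim Galore, Picard, STAR, Salmon, mRatBN7.2 and rn7. The authors deposited estimated counts per gene, 13.6% of them not whole, and strandedness is not given in the sources used here. All 30 sample columns were used. Counts were rounded, filtered with filterByExpr (minimum count 10, minimum total 15), TMM-scaled and fitted with edgeR 4.0.16 in R 4.3.3 (group means plus library series, robust quasi-likelihood). Standard errors are the log2 change over the square root of F. On simulated counts, edgeR recovered 196 of 200 changed genes among 15993 for the averaged contrast, with 7 false calls. In the data 48.2% of genes changed in that contrast, and the rate of recovery or of false calls at that share was not tested. Likeness and correlations used log2(CPM + 1). Within groups, the 60 library pairs had a chi-square per degree of freedom of 20.2 or more, and 0 were counted as 1 sample.

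All 10 listed genes are named. Of other lists the text names the 3 genes with the smallest adjusted p (mural, regulator and signal lists) or the 2 most abundant (other cells), and the most alike gene of each member. Members, lists and rules were chosen with earlier results of these data known. Alternatives were DESeq2 1.42.0 or its size factors alone, limma voom (3.58.1), no filter, no series term, a fit of series A or of the compared groups by themselves, a replicate block, RT1-CE16 level with or without sex (male above 10 CPM of Ddx3y), RT1-CE16-low libraries alone and each library left out. Leaving out 2 or 4 libraries together, and testing the RT1-CE16 level and series as terms, were chosen after seeing the data. Promoters came from RefSeq GRCr8, and 7 of 10 genes matched by symbol.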

Additional observations from a re-analysis of the deposited data

Results flagged for a closer look

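A library stood apart from the other 4 of its group, by Dixon's ratio of the gap to the whole range, in 10 of 54 sets of gene and group, where about 1 set in 20 is found by chance. In the Glenn deficient group replicate 3 was high for Acta2 (304 CPM against 83.8 to 140.0, ratio 0.744), Myh11 (609 against 175 to 256, ratio 0.814), Cspg4 (59.3 against 14.8 to 25.2, ratio 0.767) and Notch3 (189 against 43.8 to 78, ratio 0.764). In the same group replicate 4 was high for Kcnj8 (30.4 CPM against 13.4 to 18, ratio 0.728). In the sham control group replicate 1 was high for Myh11 (86.0 CPM against 49.8 to 59.1, ratio 0.742) and replicate 2 for Rgs5 (73.9 CPM against 43.6 to 49.3, ratio 0.812). In the sham excess group replicate 1 was low for Myh11 (30.6 CPM against 50.4 to 56.7, ratio 0.758) and replicate 5 high for Cnn1 (5.47 CPM against 2.29 to 2.87, ratio 0.817). In the sham deficient group replicate 4 was low for Notch3 (19.7 CPM against 25 to 26.5, ratio 0.767).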

How the results depend on the processing

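In the comparison averaged over diets, all 9 genes passed and rose in each of the 42 alternatives, and the median contractile minus pericyte change stayed between 0.58 and 0.70. The number of genes changed between excess and control diets after Glenn surgery, 1 with the series term, was 0 with no series term, with only the groups compared, in the RT1-CE16-low libraries alone, with Glenn deficient replicate 3 and Glenn excess replicate 1 both left out and without the 4 libraries at one end of their group, and 0 to 1 when single libraries were left out. On the control diet the count of 8 was 2 in the RT1-CE16-low libraries alone, where 2 sham and 3 Glenn libraries remained, and the fewer libraries are part of that setting. Rgs5 on the control diet, 0.05, changed sign with an RT1-CE16 term (-0.025), that term and sex (-0.032), RT1-CE16-low libraries alone (-0.048) and single libraries left out (-0.066 to 0.22), and it passed in none of these. With the losses above included, a single gene lost its call in 33 cases, most of them in RT1-CE16-low libraries alone or with 1 library left out. Whether replicate numbers pair the samples was not settled. Same-numbered libraries of different groups had deviations correlated from -0.275 to 0.319 (median 0.11), against a median of -0.02 for different numbers. By Ddx3y and RT1-CE16 level, replicate 1 was male and low and replicate 2 female and low in all 6 groups. With a replicate block the counts stayed at 9, 8, 9, 9 and 1, and the contractile minus pericyte difference was 0.60. At 22 to 77.6 M counts per library all 9 genes could be tested.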
